A study of Homo sapiens with 9 samples.

Results

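FGF19 and 9 genes of bile acid sensing and transport were followed in HT-29 cells, an established human colon adenocarcinoma line, grown with 0, 5 or 10 µM of 5-aza-deoxycytidine (5-Aza), an inhibitor of DNA methyltransferases. The genes were FGF19, its receptor FGFR4, the nuclear receptors NR1H4, RXRA and NR0B2, the transporters SLC51A, SLC51B, SLC10A2 and ABCB11, and the carrier FABP6. The list was drawn up by role, with earlier results of these data known, and all probe sets that the array's gene table assigns to them were taken. A probe set was found for 9 of the 10 genes, giving 16 of 54675 probe sets. NR1H4 is not named in the probe table used here, so its level was not analysed.

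Each dose had 3 separate cultures, treated for 5 days, and total RNA of each was hybridised to an Affymetrix U133 Plus 2.0 array of its own. The 0 µM cultures received the vehicle, DMSO, alone. All 9 cultures were the same unmodified cell line in the same medium. Values are log2 signals, and the median of all probe sets of an array, between 5.07 and 5.52, served as its floor. Signals below the floor were taken as not told apart from background.

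Bile acids are made from cholesterol in the liver, pass into the gut with bile, and are taken up again in the ileum. In enterocytes SLC10A2 imports them, FABP6 carries them through the cell, and the heterodimer of SLC51A and SLC51B exports them to the blood. Inside the cell they bind FXR, the product of NR1H4, which acts with RXRA and induces NR0B2, FGF19, both SLC51 subunits and, in hepatocytes, the canalicular exporter ABCB11. FGF19 then travels as a hormone to hepatocytes, where FGFR4 and its co-receptor KLB receive it and bile acid synthesis is lowered. Several colon and liver cancers also express FGF19 and FGFR4.

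The vehicle arrays carried most markers of intestinal epithelium and few of the absorptive cell of the small intestine. Of 13 epithelial markers, 10 were above the floor on every vehicle array, EPCAM, VIL1 and KRT20 among them, while CDX1, CDX2 and PHGR1 were below it at all doses. Of 12 small intestinal absorptive markers none was above the floor on all 3 vehicle arrays, and APOA1, SI and ALPI were below it throughout. GATA4 was above it on 2 vehicle arrays and 2 arrays at 10 µM, and FABP2 and RBP2 on 1 vehicle array each. ANPEP, a brush border aminopeptidase on that list, was above the floor on 0, 3 and 2 arrays at 0, 5 and 10 µM, with mean log2 signals of 1.91, 7.05 and 5.67. The summed linear signal of the absorptive markers was 127 to 226 at 0 µM, 281 to 321 at 5 µM and 203 to 332 at 10 µM. The summed linear signal of the epithelial markers was 93576 to 96842 at 0 µM, 66185 to 74585 at 5 µM and 61942 to 70156 at 10 µM. ALB, which defines hepatocytes, and PTPRC, which defines leukocytes, were below the floor on all 9 arrays, although 1 of 10 hepatocyte markers (SERPINA1) and 3 of 5 leukocyte markers on the array (CD14, LYZ and CD79A) were above it on every array. Their summed signals were 3988 to 4183, 6489 to 7656 and 2018 to 5139 for hepatocyte markers, and 12901 to 13716, 8932 to 10137 and 10741 to 11813 for leukocyte markers, at 0, 5 and 10 µM. Of 7 fibroblast markers, COL1A1 and LUM were above the floor on every array and COL3A1 on none, and the sum went from 291 to 393 at 0 µM to 1048 to 1098 at 5 µM and 635 to 764 at 10 µM. The part of these markers in the results was not tested.

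The array's own controls moved with dose. The actin control probe sets gave a log2 signal that was higher at the 3' end than at the 5' end, by 2.09 ± 0.187 at 0 µM, 2.59 ± 0.098 at 5 µM and 2.98 ± 0.166 at 10 µM (SD, n = 3), with no overlap between doses. For GAPDH this difference was 0.192, 0.318 and 0.572, also without overlap. The array median used as the floor was at most 5.20 on vehicle arrays and at least 5.25 on treated arrays. Counts of arrays above the floor thus rest on a higher floor in treated cultures. The 5' signal of 18S rRNA set apart 10 µM replicates 2 and 3, at 13.45 and 13.60, from the other 7 arrays, at 11.77 to 12.56. Values with the actin difference as a covariate or without those 2 arrays are given below beside the listed genes whose calls they changed. They are also given for some genes of the pathway lists. Since the actin difference rose with dose, a fit with it as a covariate can hardly separate it from dose. For FGF19 at 10 against 0 µM the log2 change was -1.96 ± 0.249 without that covariate and -1.98 ± 0.81 with it (SE).

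Promoter sequence is shown for FGFR4 and SLC51B, which were called in opposite directions at 5 µM, and for SLC51A, the partner subunit of SLC51B, because 5-Aza blocks the enzymes that methylate CpG. The sequences are the 250 bases before the RefSeq transcription start, on the gene's own strand, in GRCh38.p14, with every CpG in capitals. No sequence of this kind was at hand for FGF19 and NR0B2. The SLC51B window lies at chr15:65045137-65045386 on the plus strand, the SLC51A window at chr3:196216284-196216533 on the plus strand, and the upstream FGFR4 window at chr5:177086665-177086914 on the plus strand.
SLC51B: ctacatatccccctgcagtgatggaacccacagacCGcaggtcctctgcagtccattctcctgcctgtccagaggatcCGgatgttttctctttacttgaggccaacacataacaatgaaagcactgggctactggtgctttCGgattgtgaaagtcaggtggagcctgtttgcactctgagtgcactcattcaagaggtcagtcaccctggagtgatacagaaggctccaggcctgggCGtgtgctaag
SLC51A: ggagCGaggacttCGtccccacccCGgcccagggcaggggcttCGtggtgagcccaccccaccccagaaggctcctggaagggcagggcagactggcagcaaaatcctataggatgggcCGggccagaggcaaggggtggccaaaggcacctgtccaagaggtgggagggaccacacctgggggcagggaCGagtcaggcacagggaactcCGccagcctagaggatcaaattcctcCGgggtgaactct
FGFR4: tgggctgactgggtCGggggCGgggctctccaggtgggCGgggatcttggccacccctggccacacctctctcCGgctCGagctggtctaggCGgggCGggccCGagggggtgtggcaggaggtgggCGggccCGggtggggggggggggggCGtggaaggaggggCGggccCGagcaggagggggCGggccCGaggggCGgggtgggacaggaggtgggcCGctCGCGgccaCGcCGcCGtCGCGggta

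The 3 windows differed in CpG. SLC51B held 4, SLC51A held 8 and FGFR4 held 24, against a median of 11 over 35114 RefSeq promoter windows of this length and quartiles of 3 and 23. Thus 29.3% of all windows had fewer CpG than SLC51B and 76.3% had fewer than FGFR4. A further start of FGFR4, at chr5:177089300-177089549, had 2. SLC10A2 held 4, FABP6 held 3 and ABCB11 and NR1H4 held 2 each, while RXRA had 59 at its upstream start and 7 at another. Methylation itself was not measured on these arrays.

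FXR with RXRA is known to bind an inverted repeat of the AGGTCA hexamer with a spacer of 1 base. This repeat, AGGTCA followed after any base by its own reverse complement, reads the same on either strand. With 2 mismatches allowed in its 12 fixed letters, 0.945% of all windows held it. Of the 10 windows of 8 listed genes, 2 did: SLC51B, as AGGTCAGTCACCC 54 to 42 bases before the start, and ABCB11, as ATGTCACTGAACT 96 to 84 bases before it. The hexamer AGGTCA on either strand was in 12.1% of all windows and, among these genes, in those of SLC51B and NR1H4. A match of letters is a description of the sequence and not a bound site.

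**Figure D1:**
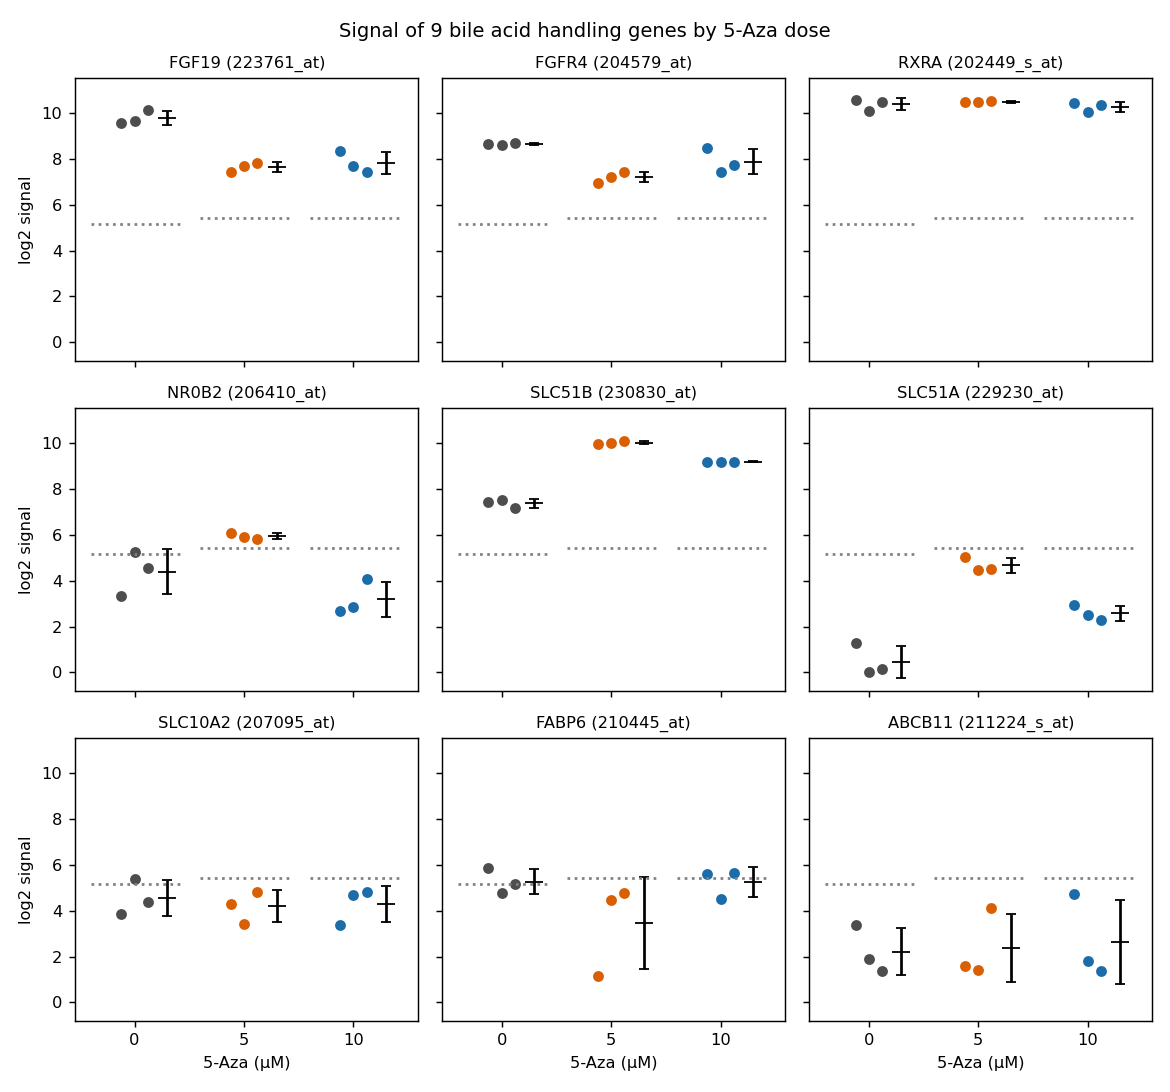
Log2 signal (vertical axis) of the 9 genes with a probe set at 0, 5 and 10 µM 5-Aza (horizontal axis). Points are the 3 arrays of a dose, bars the mean ± SD, and dotted lines the mean array median, used as the floor. FGF19 and FGFR4 dropped from 0 to 5 µM, SLC51B rose, RXRA stayed between 10.03 and 10.58, and SLC51A, SLC10A2 and ABCB11 lay at or below the floor in nearly every culture.

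FGF19, FGFR4, SLC51B, NR0B2 and RXRA reached the floor on all 3 arrays of at least 1 dose and were tested. NR0B2 did so only at 5 µM, so it entered the test through the dose where it was high. From 0 to 5 µM, FGF19 and FGFR4 fell, SLC51B and NR0B2 rose, and RXRA was not called. A call required more than 2-fold and a p, adjusted after Benjamini and Hochberg over all 11756 tested genes, of 0.05 or less. At 5 against 0 µM 9.92% of tested genes were called, 8.6% higher and 1.32% lower. From 0 to 10 µM FGF19 was lower and SLC51B higher, with 7.58% of tested genes called, 6.08% higher and 1.5% lower. Between 5 and 10 µM the 1 call was NR0B2, lower, with 2.35% called, 0.264% higher and 2.08% lower. Doses whose arrays did not overlap were common. At 5 against 0 µM the 2 doses did not overlap for 4 of the 5 tested genes of the list, against 56.4% of tested genes, at 10 against 5 µM for 3, against 35.9%, and at 10 against 0 µM for 3, against 44.5%. NR0B2 was among these genes at 5 against 0 µM and at 10 against 5 µM.

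FGF19, the hormone, had the largest fall against vehicle of the listed genes that were tested. Its probe set 223761_at read 9.56, 9.65 and 10.11 on the vehicle arrays, 7.41, 7.69 and 7.84 at 5 µM, and 8.35, 7.69 and 7.41 at 10 µM. Every treated array was below every vehicle array, and the treated doses overlapped. On the linear scale the mean signals were 889, 202 and 234. The log2 fold change at 5 against 0 µM was -2.13 ± 0.249 (SE, n = 3 per dose; limma adjusted p = 0.000401), 4.37-fold lower, and it ranked 5 from the largest fall among 11756 genes. Against vehicle, 10 µM gave -1.96 ± 0.249 (limma adjusted p = 0.000934), 3.89-fold lower, ranking 13. The difference between 10 and 5 µM was 0.17, with a 95% interval from -0.40 to 0.74 (limma adjusted p = 0.673).

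The fall of FGF19 at 5 µM was called under all 23 alternatives of processing, at -2.39 to -1.96. Many of them left the log2 value at -2.13 and could change its p alone. FGF19 has 1 probe set, above the floor on every array, and the 10 µM arrays do not enter this value. At 10 µM the fall of FGF19 was called under 22. With the actin difference as a covariate it was -1.98 ± 0.81 (limma adjusted p = 0.556), and without 10 µM replicates 2 and 3 it was -1.43 (limma adjusted p = 0.0149). An array averages over a whole culture, so fewer expressing cells and less RNA per cell cannot be told apart.

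FGFR4, the tyrosine kinase receptor of FGF19, fell at 5 µM. Probe set 204579_at read 8.63, 8.59 and 8.68 at 0 µM, 6.97, 7.21 and 7.42 at 5 µM, and 8.46, 7.42 and 7.74 at 10 µM. Vehicle arrays lay above all treated arrays, and 10 µM replicate 1 came within 0.2 of them. The log2 fold change at 5 against 0 µM was -1.43 ± 0.24 (limma adjusted p = 0.00243), 2.7-fold lower. For 10 µM the value was -0.76 ± 0.24 (limma adjusted p = 0.0402), 1.69-fold and so under the fold threshold. The same 10 µM culture had the highest FGF19 of its dose.

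The difference of FGFR4 at 10 µM depended on single cultures. Without 10 µM replicate 1 the log2 fold change against vehicle was -1.05 (limma adjusted p = 0.00361), past both thresholds. Without replicate 2 it was -0.53 (limma adjusted p = 0.0861), with 0.90 at 10 against 5 µM (limma adjusted p = 0.0273), under 2-fold, and without replicate 3 it was -0.69 (limma adjusted p = 0.119). Without 10 µM replicates 2 and 3 it was -0.17, and FGFR4 was then called higher at 10 than at 5 µM, by 1.26 (limma adjusted p = 0.0288) in place of 0.68 (limma adjusted p = 0.0879) with all arrays. With the actin covariate the change at 5 µM was -1.30 ± 0.483 and was not called (limma adjusted p = 0.173). As the mean of its 4 probe sets FGFR4 did not reach the floor on all 3 arrays of any dose and was not tested.

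The remaining FGFR4 probe sets lay nearer to the floor or below it. Probe set 1554962_a_at, just at the floor, changed by -0.14 from 0 to 5 µM (95% interval -0.56 to 0.27; limma adjusted p = 0.61 over 27175 tested probe sets). Probe set 211237_s_at was above the floor on 2 of 3 vehicle arrays and on no treated array, and it was not tested. Probe set 1554961_at was below the floor on all 9 arrays. At the level of probe sets, 3 of the 7 tested were called at 5 against 0 µM, those of FGF19, FGFR4 and SLC51B, where 7.56% of all tested probe sets were. At 10 against 5 µM 1 was called, that of NR0B2, against 1.92%, and at 10 against 0 µM 2, those of FGF19 and SLC51B, against 7.01%.

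**Figure D2:**
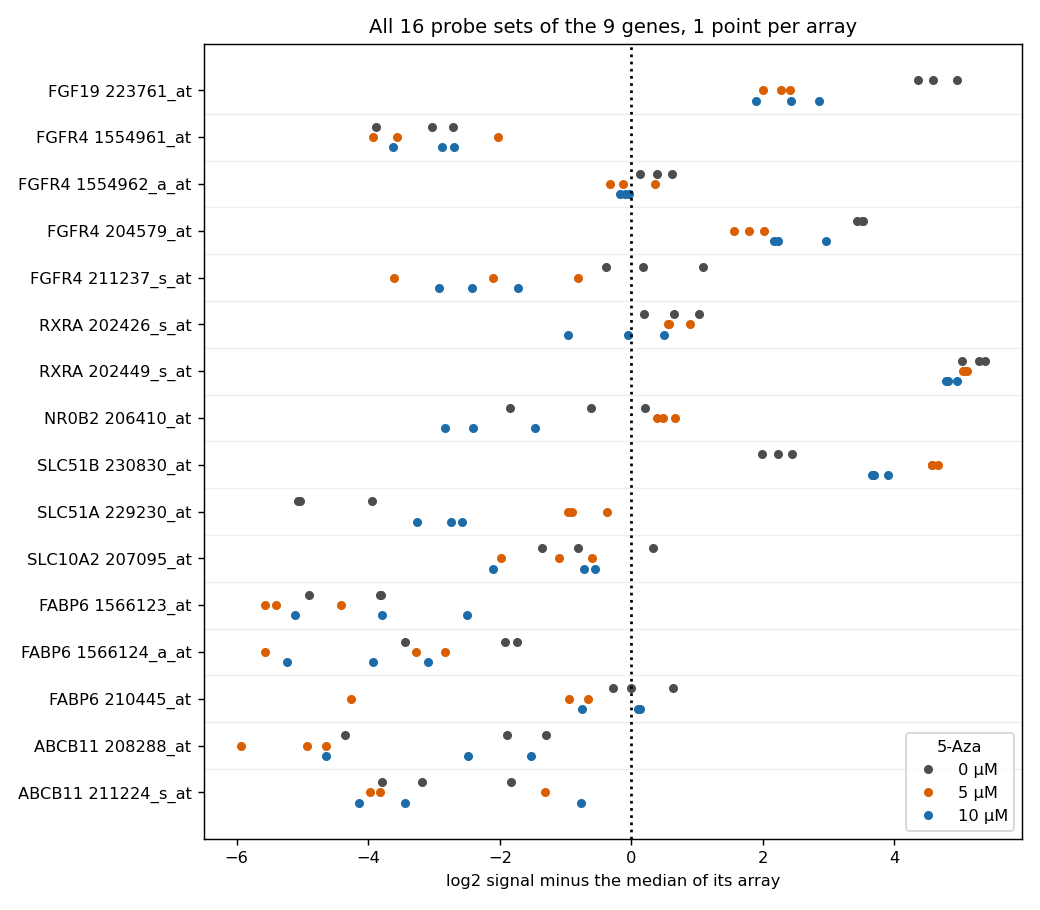
Log2 signal minus the median of its array (horizontal axis) for each of the 16 probe sets (rows), 1 point per array, coloured by dose. FGF19 223761_at, FGFR4 204579_at, SLC51B 230830_at and RXRA 202449_s_at lay right of 0 on all 9 arrays, and all probe sets of SLC51A and ABCB11 lay left of 0.

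SLC51B, the beta subunit of the basolateral bile acid exporter, rose at both doses. Probe set 230830_at read 7.43, 7.51 and 7.16 at 0 µM, 9.97, 9.98 and 10.07 at 5 µM, and 9.19, 9.15 and 9.17 at 10 µM. No arrays of different doses overlapped, and 10 µM lay between the other doses. The log2 fold change was 2.64 ± 0.108 at 5 against 0 µM (limma adjusted p = 1.83e-06), 6.25-fold, and 1.81 ± 0.108 at 10 against 0 µM (limma adjusted p = 5.46e-05), 3.5-fold. From 5 to 10 µM it changed by -0.84 ± 0.108 (limma adjusted p = 0.00378), 1.79-fold and not called. Its rank among rises was 206 at 5 µM and 228 at 10 µM. The rise at 5 µM was called under all 23 alternatives, at 2.38 to 2.81, and the rise at 10 µM under all but the actin covariate, where it was 2.10 ± 0.339 (limma adjusted p = 0.135).

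SLC51A, the alpha subunit without which the beta subunit does not transport, stayed below the floor. Probe set 229230_at read 1.26, 0.0 and 0.14 at 0 µM, 5.04, 4.45 and 4.52 at 5 µM, and 2.93, 2.51 and 2.26 at 10 µM. All 9 values lay under the medians of their arrays, so no fold and no order of the doses is given.

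NR0B2, or SHP, the repressor through which FXR lowers bile acid synthesis in hepatocytes, was near the floor. Probe set 206410_at read 3.35, 5.27 and 4.56 at 0 µM, 6.07, 5.89 and 5.81 at 5 µM, and 2.65, 2.85 and 4.05 at 10 µM. It was above the floor on 1 vehicle array, on all 3 arrays at 5 µM and on none at 10 µM, and entered the test through 5 µM alone. The log2 fold change at 5 against 0 µM was 1.53 ± 0.489 (limma adjusted p = 0.0403). The vehicle mean of 4.39 was itself below the floor, and with signals below the floor raised to it the difference was 0.71, under 2-fold. At 10 against 5 µM it was called lower (limma adjusted p = 0.01), at least 1.42-fold, the value with the 10 µM signals raised to the floor. That call was lost with the actin covariate (limma adjusted p = 0.0992) and with the per-gene test of the study's methods (Benjamini-Hochberg adjusted p = 0.0617). The difference between 10 and 0 µM was not called (limma adjusted p = 0.0883).

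The NR0B2 call at 5 µM was lost in 12 of 22 alternatives, 1.53 being its value with all arrays. It was lost without vehicle replicate 1 (1.01; limma adjusted p = 0.107), vehicle replicate 3 (1.62; 0.0724), or 5 µM replicate 1 (1.46; 0.114), 2 (1.55; 0.0917) or 3 (1.59; 0.0864). It was also lost with quantile normalization (limma adjusted p = 0.0894) and with the actin covariate (0.09; limma adjusted p = 0.961). At the level of probe sets it was not called (limma adjusted p = 0.052). At 10 against 0 µM it was called lower without vehicle replicate 1 (-1.73, limma adjusted p = 0.0214) or without 10 µM replicate 3 (-1.64, limma adjusted p = 0.0452). Only 1 vehicle array and 0 of the 10 µM arrays were above the floor. With low signals raised to it the difference was 0.21. That value mostly holds the gap between the array medians, on average 5.42 at 10 µM and 5.15 at 0 µM, and says little of NR0B2.

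RXRA, the retinoid X receptor that partners FXR and many other nuclear receptors, was well above the floor on every array and was not called in any comparison. Probe set 202449_s_at read 10.58, 10.10 and 10.45 at 0 µM, 10.46, 10.46 and 10.51 at 5 µM, and 10.45, 10.03 and 10.33 at 10 µM. The vehicle and treated arrays overlapped. The 95% interval of the log2 difference was -0.24 to 0.44 at 5 against 0 µM, -0.45 to 0.23 at 10 against 0 µM and -0.55 to 0.14 at 10 against 5 µM. Its second probe set, 202426_s_at, lay between 4.53 and 6.31 and was not called either, with -0.84 at 10 against 5 µM (limma adjusted p = 0.155).

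The uptake and carrier genes of the ileum, and the hepatocyte exporter, were at or below the floor. SLC10A2, the apical importer, read between 3.39 and 5.40 and was above the floor on 1 vehicle array only. FABP6 probe set 210445_at read 5.83, 4.79 and 5.16 at 0 µM, 1.138, 4.46 and 4.75 at 5 µM, and 5.59, 4.50 and 5.65 at 10 µM, above the floor on 1 vehicle array and 2 arrays at 10 µM. The other FABP6 probe sets, and both of ABCB11, were below it on all arrays. None of these was tested, and no fold is given.

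**Figure D3:**
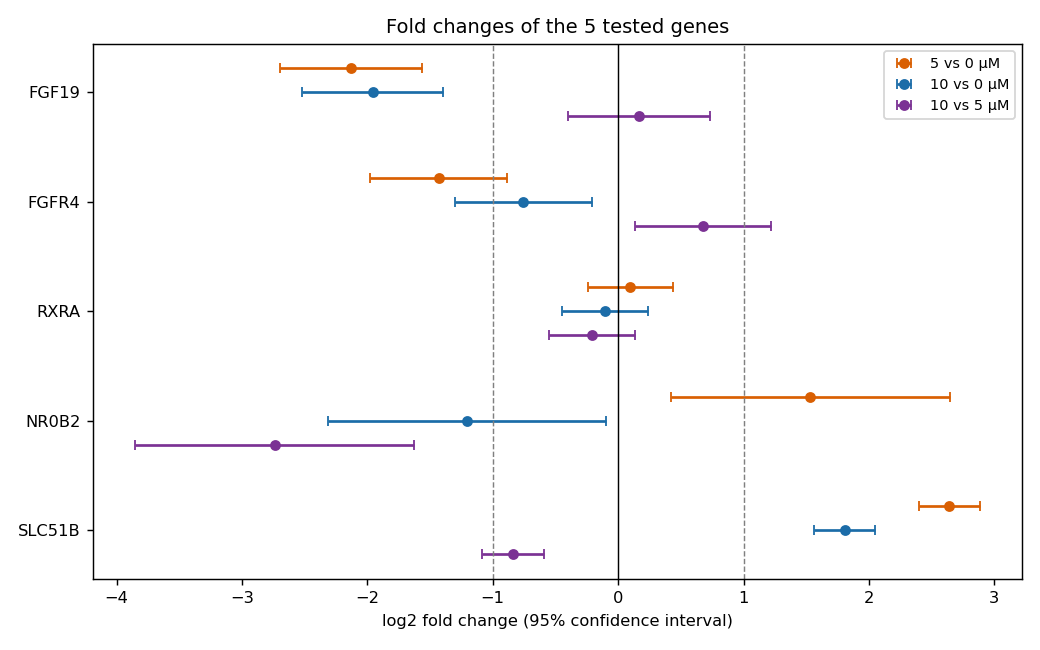
Log2 fold change with its 95% confidence interval (horizontal axis) of the 5 tested genes for each comparison of doses. Dashed lines mark 2-fold. The intervals of FGF19 against vehicle lay left of -1, those of SLC51B right of 1, and those of RXRA around 0.

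Of the tested genes around FGF19 on chromosome 11, ANO1 alone was called with it at 5 µM. The 6 nearest protein-coding genes with a probe set on each side included CCND1, which encodes cyclin D1, the growth factor genes FGF4 and FGF3, and CTTN, which encodes cortactin. Of these 12 genes 10 were tested, and at 5 against 0 µM 1 was called lower and 0 higher, where 1.32% and 8.6% of all tested genes were. At 10 µM none was called against either other dose, while FADD, lower, and CTTN, higher, passed the adjusted p against 0 µM.

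The called neighbour was ANO1, a calcium-activated chloride channel. It read 10.77, 10.81 and 10.80 at 0 µM, 9.71, 9.80 and 9.59 at 5 µM, and 10.62, 10.42 and 10.59 at 10 µM. Its log2 fold change was -1.09 ± 0.097 at 5 against 0 µM (limma adjusted p = 9.09e-05), but -0.94 as the mean of its probe sets, and at 10 against 0 µM it was -0.25 (limma adjusted p = 0.0778). FADD, the death receptor adaptor, changed by -0.73 on the log2 scale at 5 µM (limma adjusted p = 0.00143) and -0.75 at 10 µM (limma adjusted p = 0.00187), under 2-fold. CTTN rose by 0.375 (limma adjusted p = 0.0119) and 0.35 (0.0175) at these doses, and IGHMBP2 by 0.53 at 5 µM (limma adjusted p = 0.0253), also under 2-fold. CCND1 changed by -0.07 at 5 µM and 0.11 at 10 µM against vehicle. LTO1, next to FGF19, changed by -0.57 (limma adjusted p = 0.119) and 0.18.

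**Figure D4:**
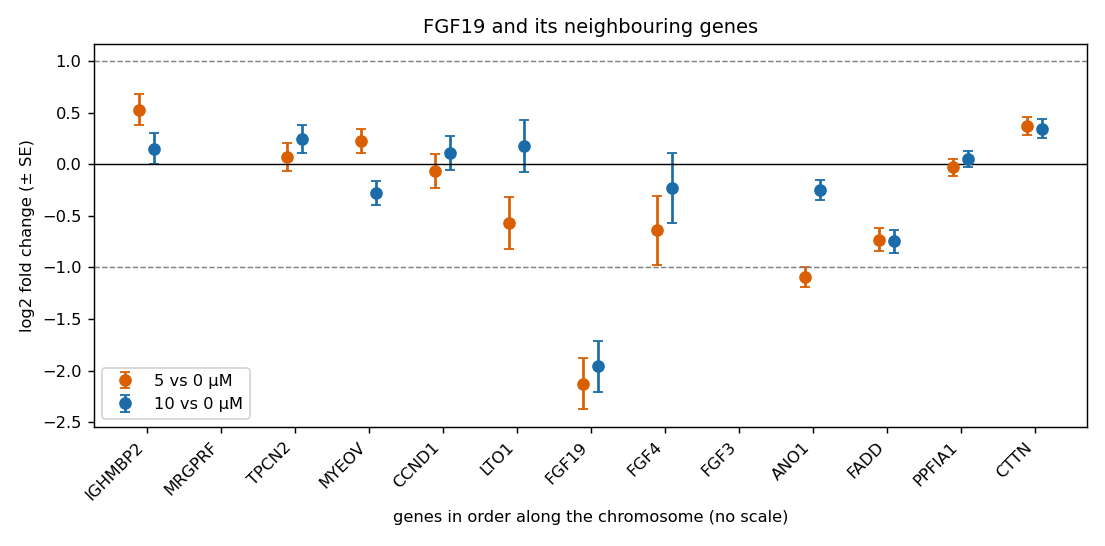
Log2 fold change ± SE (vertical axis) of FGF19 and of the 6 named genes on either side in their order along the chromosome (horizontal axis, not to scale), at 5 and 10 µM against 0 µM. Genes without a point were not tested. FGF19 lay at -2.13 and -1.96, ANO1 at -1.09 and -0.25, and the other tested neighbours between the dashed lines of 2-fold.

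The genes whose values over the 9 arrays were most like those of FGF19, of 11755 others tested, were ITGA2 (Pearson r = 0.993), ADCK2 (0.986), PLPP2 (0.983), SNCG (0.978) and NFIB (0.977). The arrays fall into 3 doses, so these coefficients mostly hold the step from vehicle to treatment, and they are given as a description. ITGA2, the integrin alpha 2 chain, read 10.65, 10.75 and 10.86 at 0 µM, 9.91, 9.95 and 10.05 at 5 µM, and 10.21, 9.86 and 9.89 at 10 µM. Its 10 µM replicate 1 was the highest of its dose, as for FGF19. Its log2 difference at 5 against 0 µM was -0.78. No test is given for these genes, since they were picked for their likeness over the same arrays.

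SNCG, which encodes gamma-synuclein, read 8.43, 8.30 and 8.70 at 0 µM, 7.002, 6.931 and 7.297 at 5 µM, and 7.88, 7.06 and 6.83 at 10 µM. It was the furthest below vehicle of the 5, by log2 differences of -1.40 at 5 µM and -1.22 at 10 µM. PLPP2, a lipid phosphate phosphatase, differed from vehicle by -1.03 and -1.002. Among the listed genes, FGFR4 had r = 0.886 with FGF19 and ranked 324.

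The wider pathway was read from 8 lists with 123 genes, of which 111 were on the array and 62 were tested. At 5 against 0 µM 3 of the 62 were called higher and 0 lower, with a median log2 fold change of -0.04 against 0.04 over all tested genes. At 10 against 0 µM 0 were higher and 1 lower (1.61%), against 6.08% and 1.5% of all tested genes, with a median of -0.07 against 0.05. At 10 against 5 µM 0 were higher and 1 lower (1.61%), against 0.264% and 2.08%, with a median of -0.07 against -0.01. The share called higher at 5 µM was 4.84%, against 8.6% of all tested genes, and 1.32% of these were called lower. The counts of single lists below stand against these same shares.

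Among other FGF ligands, 5 of 21 genes were tested and FGF18 and FGF21 rose at 5 µM. FGF18, a growth factor of the paracrine FGF8 subfamily, read 6.21, 5.88 and 6.15 at 0 µM, 7.85, 7.60 and 7.66 at 5 µM, and 7.01, 6.79 and 6.83 at 10 µM. No 2 doses overlapped, and its log2 fold change was 1.62 ± 0.124 at 5 against 0 µM (limma adjusted p = 4.46e-05) and 0.80 ± 0.124 at 10 against 0 µM (limma adjusted p = 0.00238), the second under 2-fold. FGF18 at 5 µM was called under all 23 alternatives.

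FGF21, an endocrine hormone of the FGF19 subfamily that also signals through KLB, rose at 5 µM, where FGF19 fell. It read 4.99, 5.77 and 5.74 at 0 µM, 7.56, 7.62 and 7.53 at 5 µM, and 6.35, 4.16 and 5.92 at 10 µM. The 5 µM arrays stood above all others, and it reached the floor on all 3 arrays at 5 µM alone, so it entered the test through the dose where it was high. The log2 fold change was 2.07 ± 0.492 at 5 against 0 µM (limma adjusted p = 0.0122), lost with the actin covariate (limma adjusted p = 0.392), and -2.09 at 10 against 5 µM (limma adjusted p = 0.0252). With signals below the floor raised to it these differences were 2.0 and -1.73. The call at 10 against 5 µM was lost with the actin covariate (limma adjusted p = 0.285), without the filter (limma adjusted p = 0.0904) and with the per-gene test (Benjamini-Hochberg adjusted p = 0.162), and without 5 µM replicate 1 (limma adjusted p = 0.0724), 2 (0.0775) or 3 (0.0824), without 10 µM replicate 3 (0.0549), and without 10 µM replicates 2 and 3 (-1.22; limma adjusted p = 0.0626).

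Of 11 tested receptors, klotho co-receptors and adaptors of FGF signalling, 0 were called at 5 µM. KLB, the co-receptor of FGF19 and FGF21, read 5.998, 6.401 and 5.914 at 0 µM, 6.89, 6.78 and 6.98 at 5 µM, and 6.35, 7.08 and 6.90 at 10 µM. Its log2 difference at 5 against 0 µM was 0.78 ± 0.199 (limma adjusted p = 0.0166), 1 of the changes that passed the adjusted p but not 2-fold. FGFR2 was -0.88 ± 0.105 at 5 against 0 µM (limma adjusted p = 0.000451), under 2-fold, and -0.02 from its brightest probe set whose name does not end in _s_at or _x_at. FGFR1 and FGFR3 differed from vehicle by 0.23 (limma adjusted p = 0.449) and -0.04 (limma adjusted p = 0.896).

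FRS3, an adaptor that links FGF receptors to the ERK pathway, was the 1 call of all lists at 10 against 0 µM. It read 5.55, 6.05 and 6.16 at 0 µM, 5.42, 5.89 and 5.67 at 5 µM, and 4.70, 5.42 and 4.57 at 10 µM, where 1 array was above the floor. Its log2 fold change was -1.02 ± 0.249 (limma adjusted p = 0.0146), and -0.44 with signals below the floor raised to it (limma adjusted p = 0.0682). The call was also lost without the filter (limma adjusted p = 0.0535), with the per-gene test (Benjamini-Hochberg adjusted p = 0.114) and with the actin covariate (limma adjusted p = 0.681). It was lost without vehicle replicate 2 (-0.96; limma adjusted p = 0.0516) or 3 (-0.91; 0.0456), and without 10 µM replicate 1 (-0.93; 0.045) or 3 (-0.86; 0.0562).

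All 13 ERK targets and feedback inhibitors were tested, and DUSP5, a nuclear phosphatase of ERK, was the 1 called at 5 µM. It read 9.18, 9.32 and 9.21 at 0 µM, 10.47, 10.59 and 10.78 at 5 µM, and 9.83, 9.88 and 9.79 at 10 µM. Doses did not overlap, and the log2 fold change at 5 against 0 µM was 1.38 ± 0.105 (limma adjusted p = 4.19e-05), called under all 23 alternatives. DUSP6, a cytoplasmic phosphatase of ERK, differed by 0.05 (limma adjusted p = 0.684). SPRY1 and SPRY2, feedback inhibitors of receptor signalling, differed by -0.70 (limma adjusted p = 0.00267) and -0.08 (limma adjusted p = 0.75). IER3, EGR1 and DUSP4 were higher by 0.80 (limma adjusted p = 0.000677), 0.70 (0.00868) and 0.64 (0.0299), each under 2-fold. By value 8 of the 13 were higher at 5 than at 0 µM, with a median log2 difference of 0.07, near the 0.04 over all tested genes.

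Genes of bile acid synthesis, conjugation and other transport gave no call in any comparison. Of 19 synthesis genes 7 were tested. SLC27A2, an acyl-CoA synthetase, differed by 0.54 at 5 against 0 µM (limma adjusted p = 0.0197) and HSD17B4, a peroxisomal enzyme of side chain shortening, by -0.43 (limma adjusted p = 0.0203). Of 6 tested transporters, 5 were lower at 5 than at 0 µM by value, with a median log2 difference of -0.50 against 0.04 over all tested genes. At 10 against 5 µM 4 were higher by value, with a median of 0.49 against -0.01. At 10 against 0 µM 2 were higher, with a median of -0.12 against 0.05.

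The hepatic uptake carriers SLCO1B1 and SLCO1B3 had the smallest p among the transporters at 5 against 0 µM. SLCO1B3 read 9.86, 9.74 and 9.77 at 0 µM, 9.27, 9.20 and 9.20 at 5 µM, and 9.65, 9.57 and 9.61 at 10 µM. Its log2 difference was -0.57 ± 0.084 at 5 against 0 µM (limma adjusted p = 0.00131). SLCO1B1 was above the floor on all vehicle arrays and on none at 5 µM, at least 1.44-fold lower (limma adjusted p = 0.000833). The basolateral exporter ABCC3 was -0.66 (limma adjusted p = 0.00807) and ABCG2 0.72 (limma adjusted p = 0.0038).

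Of 10 tested receptors of bile acids, partners and coregulators, 0 were called. NR5A2, or LRH-1, which binds NR0B2 and activates bile acid synthesis genes in the liver, read 8.11, 8.29 and 8.13 at 0 µM, 8.03, 7.91 and 8.14 at 5 µM, and 7.17, 7.28 and 7.26 at 10 µM. The 10 µM arrays were below all others, and the log2 difference from vehicle was -0.94 ± 0.1 (limma adjusted p = 0.000449), just under 2-fold. It was past 2-fold with quantile normalization (-1.07) and as the mean of its probe sets (-1.27), and it was called in 4 of 23 alternatives. NCOA1, a coactivator, was 0.67 at 5 against 0 µM (limma adjusted p = 0.00337) and VDR, which also binds a secondary bile acid, -0.40 (limma adjusted p = 0.0114). Of 7 tested FXR targets outside bile acid handling none was called. At 5 against 0 µM SDC1 was at -0.46 (limma adjusted p = 0.0186) and PDK4 at -0.46 (limma adjusted p = 0.0483). PLTP went the other way, at least 1.95-fold higher and not called (limma adjusted p = 0.0631). It was above the floor on 0 vehicle arrays and on 3 at 5 µM, and entered the test through 5 µM alone. By value 2 of the 7 were higher, with a median log2 difference of -0.12 against 0.04 over all tested genes.

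**Figure D5:**
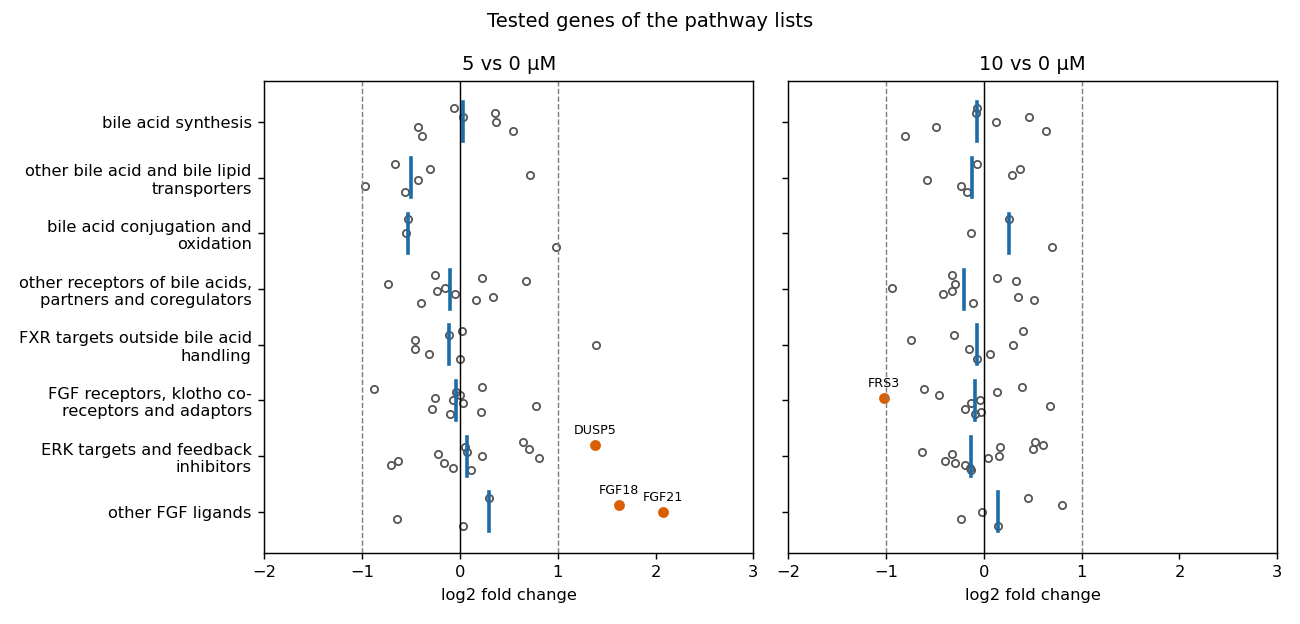
Log2 fold change (horizontal axis) of each tested gene of the 8 pathway lists (rows), at 5 against 0 µM (left) and 10 against 0 µM (right). Filled points are called genes, named beside them, blue bars the median of each list, and dashed lines 2-fold. DUSP5, FGF18 and FGF21 were right of 1 at 5 µM, and FRS3 was left of -1 at 10 µM.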

How the data were processed

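The 9 arrays were grouped by the dose in their labels. The deposited values are log2 signals, 54675 per array. Per the labels, the authors used RMA and the affy package 1.14.2, but the values have the form of MAS 5.0 signals, with a 2% trimmed linear mean near 250.1 on every array and a minimum of -3.32. Each array was thus scaled by a factor of its own, and low signals are noisy. Here 6 probe sets with a missing value were left out, and symbols came from the platform's table, updated through RefSeq: 41091 probe sets had 1 gene, 1801 several, 11721 none, and 62 were controls. Each of 19775 genes was represented by its brightest probe set and entered the test where, in at least 1 dose, all 3 arrays had it at or above their own medians. Differences were tested two-sided by lmFit and eBayes (limma 3.58.1, R 4.3.3) on all 9 arrays with 1 mean per dose, adjusted over all tested genes by Benjamini-Hochberg, and called at 0.05 and more than 2-fold. A bound ("at least") raised values below the array median to it. The code was tested on simulated data.

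The listed genes, pathway lists and tests were chosen with earlier results of these data known. The genes to be named were all listed genes, the 5 with the highest r to FGF19, the called genes of each list (up to 4, otherwise the 2 of smallest p), and the 6 neighbours of FGF19 on each side. Some genes picked by this rule, among them CYP3A5, UGT2B15, ABCC4 and MYEOV, were not described above. Other list genes were named after their values were seen (ABCC3, ABCG2, FGFR1, FGFR3, DUSP4, DUSP6, EGR1, SPRY1 and SPRY2). So were IER3 and PLTP at 5 µM. The alternatives were filters, choice of probe set, fits of the compared doses alone, variance models, array weights, scaling, the replicate number as a block, the per-gene test of the study's methods, an actin covariate, leaving out arrays, and, chosen after seeing the data, leaving out 10 µM replicates 2 and 3. The comparisons share arrays: the 0 µM arrays serve in both comparisons with vehicle. The number of arrays limits the precision.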

Additional observations from a re-analysis of the deposited data

How the results depend on the processing

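Most signals near the array median are noisy, and 3 arrays per dose leave wide intervals. FGF19 and SLC51B at 5 against 0 µM kept their calls under all 23 alternatives. Each has 1 probe set, above the floor on every array, so many alternatives could change the p but not the log2 value. Leaving out 10 µM arrays likewise leaves the log2 value of a gene at 5 against 0 µM unchanged. Without the filter SLC51A was called in all 3 comparisons, from signals below the floor on every array. NR0B2 then lost its call at 5 against 0 µM. The number of listed genes called at 5 against 0 µM, 4 with the reported settings, became 2 with the actin covariate (FGF19 and SLC51B) and ranged from 3 to 4 when 1 array was left out. At 10 against 5 µM it was 1 (NR0B2) and became 2 without the filter (with SLC51A), 2 with no fold threshold (with SLC51B), 2 without 10 µM replicates 2 and 3 (with FGFR4), and 0 with the floor at the 60th percentile, with the per-gene test of the methods, with low signals raised to the floor or with the actin covariate, and it was 1 to 1 when 1 array was left out. At 10 against 0 µM it was 2 and became 4 with equal array medians (with FGFR4 and NR0B2) and 0 with the actin covariate, and ranged from 2 to 3 when 1 array was left out. The cause was not tested, except that the 60th percentile leaves NR0B2 untested. The actin difference rose with dose, so its part in a lost call cannot be told apart from that of dose.

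Of the probe sets, 3, 1 and 2 were called at 5 against 0, 10 against 5 and 10 against 0 µM. With the actin covariate these became 1, 0 and 0, and at 10 against 5 µM 0 were called with no filter and with the floor at the 60th percentile. Leaving out 1 array gave 3 to 4, 0 to 1 and 2 to 3. Of the list genes, 3, 1 and 1 were called. At 5 against 0 µM this became 5 with array weights, 6 with equal array medians and 22 with no fold threshold, and 3 to 4 when 1 array was left out. At 10 against 5 µM it became 0 with no filter, the per-gene test, the actin covariate or without 10 µM replicates 2 and 3, 2 with the mean of probe sets, 4 with array weights, 11 with no fold threshold, and 0 to 3 when 1 array was left out. At 10 against 0 µM it became 0 with no filter, the 60th percentile, the per-gene test, low signals raised or the actin covariate, 2 with the mean of probe sets or array weights, 3 with quantile normalization, 4 with equal array medians or without 10 µM replicates 2 and 3, 18 with no fold threshold, and 0 to 2 when 1 array was left out.

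Signs turned for values that were not called. FGF19 at 10 against 5 µM was -0.20 with array weights and -0.097 without 10 µM replicate 1, and -0.097 to 0.372 over all settings that leave out 1 array. NR0B2 at 10 against 0 µM was 0.21 with low signals raised to the floor, which mostly holds the gap between the array medians of these doses. RXRA at 10 against 0 µM was 0.013 without 10 µM replicate 2 (-0.246 to 0.013 when 1 array was left out) and 0.072 without 10 µM replicates 2 and 3, and at 5 against 0 µM it was -0.17 with equal array medians and -0.041 without 0 µM replicate 2 (-0.041 to 0.2 when 1 array was left out). HSD17B4 at 10 against 0 µM was 0.039 as the mean of its probe sets. Equal array medians move the median of all tested genes to -0.22 at 5 against 0 µM and -0.23 at 10 against 0 µM, from 0.04 and 0.05, so RXRA at 5 µM lay above that median in both scalings.

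Correlations of deviations between same-numbered arrays were low, from -0.09 to 0.18. Arrays of different numbers were not compared, and the labels do not say whether cultures of the same number were set up together. With the replicate number as a block, 4, 1 and 2 of the listed genes were called, as without it.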
